A study of Mus musculus with 21 samples.

Results

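The genes described here were 7 genes of cholesterol synthesis and its feedback control: Hmgcs1, Idi1, Fdft1, Sqle, Cyp51, Dhcr7 and Insig1. They were taken by symbol from the 24391 genes of the count tables. RNA of the brain, liver and skin of newborn C57BL/6 mice at postnatal day 0 (P0) was sequenced, with 1 library for each mouse and tissue and 21 libraries in all. The 2 knock-in (KI) mice carried heterozygous Jak1 H595D, a change in the kinase JAK1, together with the silent changes I596I and Y597Y (genotype "Jak1 KI +/-"), and the 5 wild-type (WT) mice carried none of them. The study describes a mosaic KI male as the source of heterozygous offspring, and does not say whether the KI pups sequenced here shared a litter. The libraries held between 26549326 and 38388133 counts on genes.

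Cells build cholesterol from acetyl-CoA, first through mevalonate to the isoprenoid farnesyl pyrophosphate (the mevalonate arm) and then through squalene and lanosterol to cholesterol (the sterol arm). When sterols in the endoplasmic reticulum run low, the escort protein SCAP carries the transcription factor SREBP2 to the Golgi, where it is cut and released to switch on most of these genes, whereas INSIG proteins hold it back when sterols are plentiful. The brain depends on its own synthesis because lipoproteins of the blood do not enter it, the liver also exports cholesterol, and the epidermis uses cholesterol for its barrier.

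Of the 7 genes, 6 could be measured. Hmgcs1, the enzyme that makes HMG-CoA at the head of the mevalonate arm, was listed at 0 in all 21 libraries, as were 12.6% of all genes in the tables. In the NCBIM37 (mm9) genome, to which the reads were aligned, the 300-base promoter window of Hmgcs1 from RefSeq matched no chromosome and had 2 exact matches, both on unplaced contigs. The gene span of 17910 bases on one contig was present on the other over its whole length, with no differing base. The value of 0 was not read as a measure of Hmgcs1 expression. The part of the duplicated contigs, or of the gene annotation used, in that value was not tested. The 250 bases of the window that precede the start of the gene are shown because they hold the letters of a sterol regulatory element, the motif that SREBP2 binds, in capitals. They lie on chromosome 13 of GRCm38.p6 (chr13:119690101-119690350, plus strand).
Hmgcs1 promoter: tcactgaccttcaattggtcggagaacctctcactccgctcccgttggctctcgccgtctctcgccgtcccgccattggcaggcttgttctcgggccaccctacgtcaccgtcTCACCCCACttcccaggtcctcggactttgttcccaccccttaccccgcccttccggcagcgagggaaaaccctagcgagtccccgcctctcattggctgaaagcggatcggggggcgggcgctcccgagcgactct

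The element begins 137 bases before the start. The RefSeq promoter table (GRCm38.p6) held 5 of the 7 genes, all but Sqle and Fdft1. The letters TCACNCCAC, searched on both strands of the 250-base windows, were present in Hmgcs1 and in no window of Cyp51, Dhcr7, Idi1 or Insig1, against 1.05% of 32851 promoters. Of the 29 sterol pathway genes with a window, 1 held them. No other form of the element and no longer window was searched, so a gene without these letters may still have an element. The letters CCAAT, the box of the SREBP partner NF-Y, were present in 5 of the 7 windows of these genes, at least 1 for each gene, and in 33.85% of promoters. GGGCGG, the box of SP1, was present in 6 of the 7 windows, again at least 1 for each gene, and in 32.74% of promoters.

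Idi1, the isomerase that makes dimethylallyl pyrophosphate, was measured at low level, with 23 to 218 counts in a library. A second copy of its transcript lay on chromosome 2 of NCBIM37 (53553399 to 53555892, 99.32% identity), and 78.79% of the 100-base windows of the transcript were identical to another place in the genome. The copy held 738 of the 852 coding bases (86.62%) without a difference. The last 60 coding bases show this. They lie at chr13:8889822-8889881 on the plus strand in Idi1 and at chr2:53555155-53555214 on the minus strand in the copy.
Idi1: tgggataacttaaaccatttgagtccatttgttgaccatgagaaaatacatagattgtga
Copy: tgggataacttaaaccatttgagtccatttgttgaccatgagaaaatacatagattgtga

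Insig1, the endoplasmic reticulum protein that retains SCAP, had 17.31% of such windows repeated elsewhere, with a copy of 97.94% identity on chromosome 3. Fdft1, squalene synthase, had 8.08%, with a copy of 97.4% identity on chromosome 14. Sqle (squalene epoxidase), Cyp51 (lanosterol demethylase) and Dhcr7 (the reductase of the last step of the Kandutsch-Russell branch) had none. Reads that aligned to more than 1 place were not counted on genes, so the levels of Idi1, and to a lesser degree of Insig1 and Fdft1, may be understated. The size of that loss was not tested. In NCBIM37 the measured genes lie on chromosome 15 (Sqle, 59146632 to 59162747), chromosome 14 (Fdft1, 63763990 to 63796630), chromosome 5 (Cyp51, 4081145 to 4104746, and Insig1, 28397952 to 28405201), chromosome 7 (Dhcr7, 151009050 to 151034315) and chromosome 13 (Idi1, 8884852 to 8891641).

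To compare levels between genes and tissues, counts relative to library size (CPM) were divided by transcript length (RPKM, with scaling over all 21 libraries). In WT mice, the sterol genes were highest in the liver or at like levels in brain and liver, and lowest in the skin for all but Insig1. Sqle was at 78.1 ± 15.7 RPKM in the WT brain, 80.6 ± 10.8 in liver and 27.7 ± 2.34 in skin (SD, n = 5). Cyp51 was also lowest in the skin and near level in the others, with 64.0 ± 8.97 RPKM for liver, 64.4 ± 6.51 for brain and 22.6 ± 2.96 for skin. Dhcr7 was liver-rich, at 72.0 ± 4.15 RPKM in the liver against 28.2 ± 2.88 in the brain and 18.7 ± 2.90 in the skin. Fdft1 was at 55.4 ± 3.25 RPKM in the liver, 37.4 ± 3.94 in the brain and 14.3 ± 2.76 in the skin. The low values of Idi1 had the same order as Fdft1, with 2.19 ± 0.689 RPKM in the liver, 1.19 ± 0.448 in the brain and 0.530 ± 0.160 in the skin.

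Insig1 had a pattern of its own. In the liver its WT values were 252.6, 263.8, 231.9, 130.2 and 236.8 RPKM in WT 1 to WT 5. In the skin they were 64.2, 42.5, 93.6, 22.05 and 21.99 RPKM, and in the brain they lay between 26.0 and 29.9 RPKM. All liver values were above all skin values, whereas 2 of the 5 skin libraries were below the brain range.

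**Figure D1:**
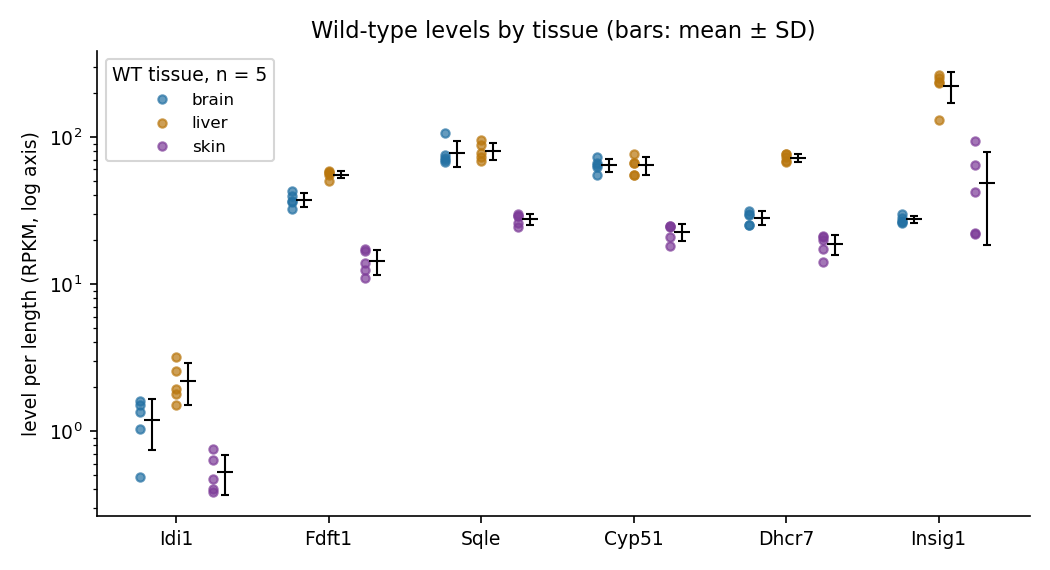
Level of 6 cholesterol genes in wild-type mice, in RPKM on a log axis, by tissue. Points are the 5 mice and black bars the mean ± SD; the skin is lowest for each gene but Insig1, whose liver mean is 223.1 RPKM.

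The tissues were tested over the 15 WT libraries with the mouse as a block (edgeR quasi-likelihood test), and a gene was called at an adjusted p under 0.1 and a log2 difference over 1. Against the skin, the liver was higher for 6 of 6 measured genes, where 18.7% of all genes tested were called in that direction. The log2 differences ran from 1.50 ± 0.134 (SE) for Cyp51 and 1.53 ± 0.134 for Sqle, through 1.96 ± 0.119 for Dhcr7 and 1.97 ± 0.128 for Fdft1, to 2.09 ± 0.362 for Idi1 and 2.32 ± 0.315 for Insig1. The largest adjusted p, by edgeR, was 0.000291 for Idi1. The brain was above the skin for 4 of 6 genes (25.3% of all genes), with log2 differences of 1.51 for Cyp51, 1.48 for Sqle, 1.40 for Fdft1 and 1.18 for Idi1. Dhcr7 differed by 0.60 (edgeR adjusted p = 0.000505), below the size required, and Insig1 by -0.64 (edgeR adjusted p = 0.0772). Idi1 fell below the size required, at 0.94, without WT 2. The study's methods report less intact RNA in the skin than in the liver, so RNA integrity and tissue cannot be told apart in the contrasts of the skin with the liver.

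Between brain and liver, 2 of 6 genes were called lower in the brain, where 29.2% of all genes were. Dhcr7 differed by -1.36 ± 0.116 and Insig1 by -2.96 ± 0.320 (log2, SE), with edgeR adjusted p of 3.95e-07 and 3.49e-06. Fdft1 and Idi1 were also lower in the brain, by -0.57 and -0.91 on the log2 scale (edgeR adjusted p = 0.00106 and 0.0326), below the size required. Idi1 passed it, at -1.05, without WT 1 and, at -1.20, without WT 2, and was at -0.48 (edgeR adjusted p = 0.104) without WT 5. Sqle and Cyp51 differed by -0.05 ± 0.131 and 0.01 ± 0.131, less than the spread between mice.

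Within a tissue, neighbours in the order of levels mostly overlapped. In the brain, Sqle (67.3 to 105.8 RPKM) overlapped Cyp51 (55.3 to 73.1), and Dhcr7 (25.0 to 31.5) overlapped Insig1, while Fdft1 (32.2 to 42.6) lay apart between the pairs. In the liver, Insig1 stood above the rest, and Sqle (69.0 to 94.7), Dhcr7 (67.0 to 76.1), Cyp51 (55.1 to 76.4) and Fdft1 (50.1 to 58.5) each overlapped the next. In the skin, Sqle (24.4 to 30.1), Cyp51 (18.2 to 24.7), Dhcr7 (14.2 to 21.1) and Fdft1 (10.9 to 17.3) formed a like chain. Idi1 lay below all others in each tissue.

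Beyond the 7 genes, the list of the pathway held 33 others of the mevalonate arm, the sterol arm, the SREBP machinery and cholesterol uptake and transport. Srebf2, which encodes SREBP2, was nearly level, at 35.0 ± 1.90 RPKM in the WT liver, 33.4 ± 8.75 in the brain and 33.0 ± 7.38 in the skin. Srebf1, which encodes the SREBP of fatty acid synthesis, was at 65.9 ± 5.09, 11.8 ± 1.46 and 71.0 ± 35.5 RPKM in the same order. All 14 genes of the sterol arm were called higher in liver than in skin (18.7% of all genes), and 9 of 14 were called lower in brain than in liver (29.2% of all genes). Of the 8 genes of the mevalonate arm, 4 were called higher in liver than in skin. Between brain and liver none of the 8 was called lower and 3 were called higher in the brain, where 32.2% of all genes were, and the list median was 0.57. These were Acat2, the cytosolic thiolase (1.12), Mvk, mevalonate kinase (1.15), and Ggps1, which makes geranylgeranyl pyrophosphate (1.20). Of the 100-base windows of Acat2 and Ggps1, 20.41% and 3.0% were repeated elsewhere in the genome, so their levels may be understated. The most abundant gene of the mevalonate arm was Pmvk, phosphomevalonate kinase, in brain (103.7 RPKM) and skin (39.4 RPKM). Of the sterol arm it was Sqle in brain and 0610007P14Rik, the mouse Erg28 scaffold gene, in skin (34.3 RPKM). The SREBP machinery was led by Srebf2 in brain, Insig1 in liver and Srebf1 in skin. Uptake was led by Npc2, a lysosomal cholesterol carrier, in brain (33.3 RPKM) and by Scarb1, the HDL receptor, in liver (150.9 RPKM) and skin (96.1 RPKM).

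KI and WT mice were then compared within each tissue, on CPM scaled within the tissue. The comparison asks whether lipid genes are lower in KI tissue. The study reported this for the brain by gene set enrichment, with a set of fatty acid metabolism genes. Its gene set and test differ from the cholesterol genes and gene-by-gene tests used here. The smallest group holds 2 mice, and fewer cells of a type and less RNA per cell cannot be told apart in these bulk libraries.

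In the brain, none of the 6 measured genes was called (edgeR quasi-likelihood test, adjusted p under 0.1), where 0.0% of 16322 genes were. None passed at an unadjusted p under 0.05, or with DESeq2, which called 3.7% of all genes. Sqle was at 268.9 and 260.6 CPM in KI 1 and KI 2, and at 239.6, 251.3, 245.0, 230.1 and 367.1 CPM in WT 1 to WT 5. The KI values lay inside the WT range, which WT 5 widened. The log2 fold change of KI against WT was -0.01 ± 0.193 (SE), and 0.15 without WT 5. Cyp51 was at 287.9 and 263.6 CPM against 269.4 to 361.5 (log2 fold change -0.19 ± 0.136), and Fdft1 at 118.6 and 115.4 CPM against 114.0 to 153.4 (-0.18 ± 0.135). Their groups overlapped.

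Dhcr7 was at 113.2 and 107.9 CPM in the KI brain and between 88.2 and 107.4 CPM in the WT brain. Both KI values were above all WT values, by 0.17 ± 0.126 on the log2 scale, as for 11.6% of all genes. Insig1 was at 84.1 and 75.9 CPM against 84.6 to 99.6 CPM in WT. Both KI values were below all WT values, with a log2 fold change of -0.17 ± 0.120, as for 15.5% of all genes. Idi1 was at 4.46 and 3.77 CPM against 1.75 to 5.57 CPM, where WT 5 was the lowest. Its log2 fold change was -0.04 ± 0.415. The adjusted p of the 6 genes by edgeR ran from 0.663 for Insig1 to 0.985 for Sqle.

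Of the 39 pathway genes tested in the brain, none was called by edgeR, and 1 higher and 4 lower had an unadjusted p under 0.05 (2.80% and 7.81% of all genes). DESeq2 called 1. Among the genes of smallest p over the lipid lists were Cyp7b1, the oxysterol hydroxylase (log2 fold change -0.69), 0610007P14Rik (-0.40), Etfa, a flavoprotein of fatty acid oxidation (-0.53), and Insig2, the second INSIG (-0.38), with edgeR adjusted p between 0.382 and 0.422. Of the 16 genes of fatty acid oxidation, 12 were below 0 (52.8% of all genes), with a list median of -0.26 against -0.02 for all genes. At an unadjusted p under 0.05, 1 was lower. The same list had 15 of 16 below 0 in the liver and 14 of 16 in the skin (53.2% and 56.7% of all genes). In the brain, 5 of 14 genes of fatty acid synthesis and 1 of 10 of uptake and transport were below 0. Srebf2 was at 301.1 and 302.9 CPM in KI and 113.1 to 238.6 CPM in WT (log2 fold change 0.55 ± 0.260). Both KI values were above all WT values, with an edgeR adjusted p of 0.504. Srebf1 (0.21) overlapped between groups.

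These brain counts turned on WT 5. Without it, 8 of 39 pathway genes were called, none of them among the 6, where 10.5% of all genes were called. Among them, Srebf2 (0.42), Scap (0.41) and Lss, lanosterol synthase (0.26), were higher in KI, and Insig2 (-0.39), Pmvk (-0.39) and Fdps, farnesyl pyrophosphate synthase (-0.31), were lower. Of the 100-base windows of Fdps, 26.01% were repeated elsewhere in the genome, so its level may be understated. Choroid plexus markers moved widely between brain libraries. The 6 genes of that list, whose defining transcript Ttr is also a liver gene, summed to 950.9 and 1037 CPM in KI and to 56.8, 75.7, 413.5, 1276 and 2625 CPM in WT 1 to WT 5. Astrocyte and radial glia markers summed to 2134 and 2068 CPM in KI and 2951 to 5150 CPM in WT, without overlap. Of these 6 genes, 0 were called and only 3 were below 0, with a median log2 fold change of -0.10. Neuron markers summed to 8671 and 7903 CPM in KI and 8712 to 9635 CPM in WT, also without overlap. Of those 8 genes, 6 were below 0 and 0 were called. The part of these cells in the brain values was not tested.

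**Figure D2:**
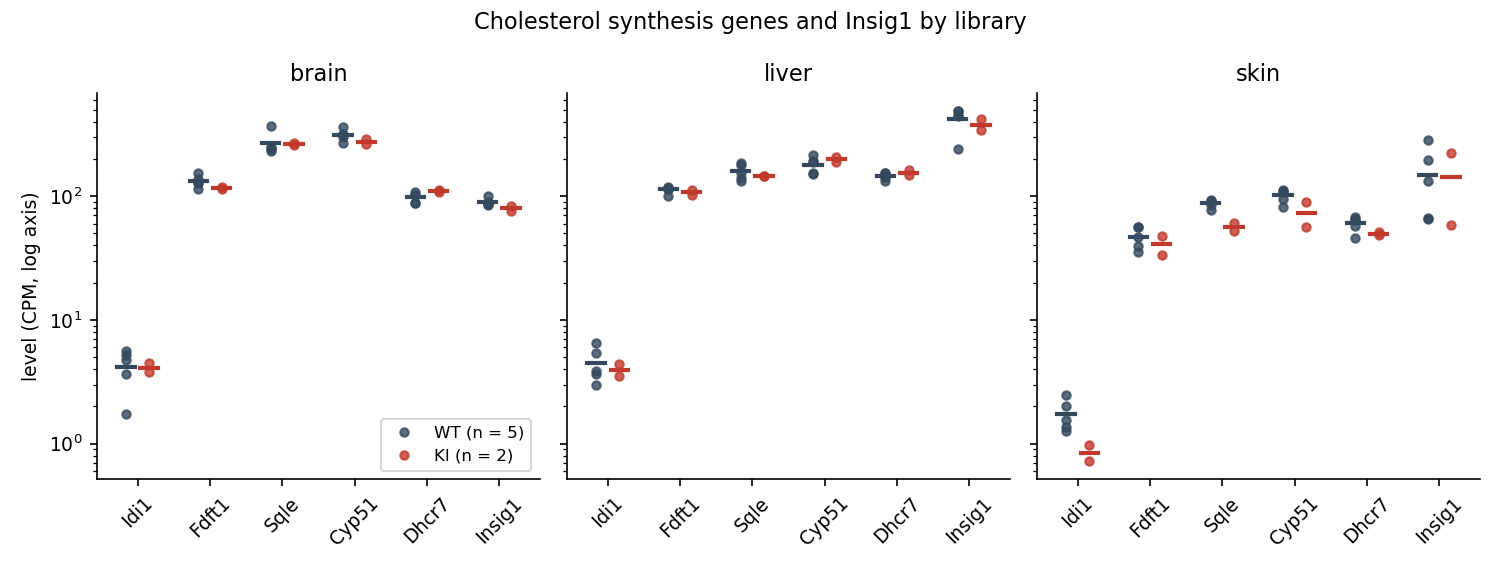
Level of the 6 measured genes in each library, in CPM on a log axis, for brain, liver and skin. Points are mice (5 WT, 2 KI) and lines group means; in the skin both KI values of Sqle and Idi1 lie below all WT values.

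In the liver, none of the 6 genes was called, where 5.57% of 14966 genes were. None had an unadjusted p under 0.05, none was called by DESeq2 (9.95% of all genes were), and the groups overlapped for each. Sqle was at 146.6 and 144.7 CPM in KI and at 155.4, 132.9, 179.5, 141.2 and 186.4 CPM in WT 1 to WT 5, so the KI libraries sat in the lower part of the WT range (log2 fold change -0.13 ± 0.140). Cyp51 was at 190.3 and 208.6 CPM against 151.2 to 214.3 CPM (0.15 ± 0.145), and Dhcr7 at 147.3 and 163.5 CPM against 132.4 to 154.5 CPM (0.10 ± 0.0950). Insig1 was at 417.2 and 340.3 CPM in KI and at 483.8, 487.8, 450.6, 242.0 and 447.3 CPM in WT. Without WT 4 both KI values would have been below WT, with a log2 fold change of -0.30 in place of -0.16 (edgeR adjusted p = 0.168 and 0.786). Fdft1 had a log2 fold change of -0.07 ± 0.0949 and Idi1 of -0.17 ± 0.309, each smaller than its SE. The adjusted p of the 6 genes by edgeR ran from 0.614 to 0.815.

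Among the 38 pathway genes tested in the liver, Npc2 alone was called. It was higher in KI, at 226.7 and 211.8 CPM against 166.5 to 181.8 CPM (log2 fold change 0.36 ± 0.0831, edgeR adjusted p = 0.0591), and it was not called at an adjusted p of 0.05 or without KI 1, KI 2, WT 1 or WT 3. Srebf1 and Srebf2 had log2 fold changes of -0.21 and -0.07, both with edgeR adjusted p over 0.4. The neighbouring lipid lists did hold called genes. Of the 14 genes of fatty acid synthesis, which answer to SREBP1, 4 were lower in KI and none higher (1.68% and 3.89% of all genes), with a list median of -0.51 against -0.02 for all genes. Thrsp, a lipogenic regulator, was at 0.934 and 1.25 CPM in KI against 8.87 to 25.3 CPM in WT (-3.72 ± 0.453). Acacb (-0.76) and Acaca (-0.59), the acetyl-CoA carboxylases, and Scd1, the stearoyl-CoA desaturase (-0.52), were the others, with edgeR adjusted p of 0.0337, 0.0567 and 0.0939. Ch25h, which makes 25-hydroxycholesterol, was at 4.54 and 1.73 CPM against 0.0684 to 0.595 CPM (3.60 ± 0.642, edgeR adjusted p = 0.0247), on as few as 2 counts in a WT library, and the sterol exporter gene Abcg4 was lower by -0.88 (edgeR adjusted p = 0.0666). In these livers, 5 of 8 macrophage markers were called higher in KI, with sums of 1523 and 1621 CPM against 995.8 to 1218 CPM, and 3 of 7 erythroid markers were called lower. Adipocyte markers summed to 212.9 and 208.5 CPM in KI and 73.64 to 97.97 CPM in WT, without overlap. Of the 8 markers only 3 were tested. Of these, 2 were called higher and 1 went the other way (log2 fold change -1.22), with both KI values below all WT values. The part of these cells was not tested.

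In the skin, the log2 fold change was below 0 for all 6 genes, and none was called by edgeR, where 0.0247% of 16163 genes were. At an unadjusted p under 0.05, 3 of 6 were lower, against 1.68% of all genes, and DESeq2 called 1, Sqle, where it called 0.0681% of all genes lower. Sqle was at 52.4 and 60.8 CPM in KI 1 and KI 2 and at 91.9, 84.6, 91.5, 93.1 and 76.8 CPM in WT 1 to WT 5. Both KI values were below all WT values, as for 3.87% of all genes. The log2 fold change was -0.65 ± 0.118, with an unadjusted p of 0.000628 and an adjusted p of 0.442 by edgeR and an adjusted p of 0.00232 by DESeq2. Leaving out single mice moved it between -0.74 and -0.52, and over all alternatives the adjusted p ran from 0.00232 to 0.999.

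Idi1 was at 0.719 and 0.971 CPM in the KI skin and at 1.57, 1.35, 2.49, 2.03 and 1.27 CPM in the WT skin. It was the other gene without overlap, and its log2 fold change of -1.06 ± 0.417 (edgeR unadjusted p = 0.0348, adjusted p = 0.999) rested on as few as 23 counts in a library. Cyp51 was at 56.1 and 90.5 CPM against 112.6, 95.8, 110.3, 108.5 and 81.7 CPM. KI 1 was below all WT libraries and KI 2 within them, with a log2 fold change of -0.50 ± 0.201 (edgeR unadjusted p = 0.0389) that moved to -0.17 without KI 1. Dhcr7 was at 48.1 and 51.3 CPM against 45.6 to 68.0 CPM (-0.30 ± 0.166), with only WT 5 below KI. Fdft1 was at 33.7 and 48.0 CPM against 35.6 to 56.4 CPM (-0.22 ± 0.219, and 0.04 without KI 1).

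Insig1 varied most. Its skin values were 58.6 and 225.0 CPM in KI and 196.9, 131.9, 283.2, 65.5 and 66.6 CPM in WT, so KI 1 lay below all WT libraries and KI 2 above 4 of the 5. The log2 fold change was -0.10 ± 0.683, and it became 0.60 without KI 1 and -1.34 without KI 2.

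**Figure D3:**
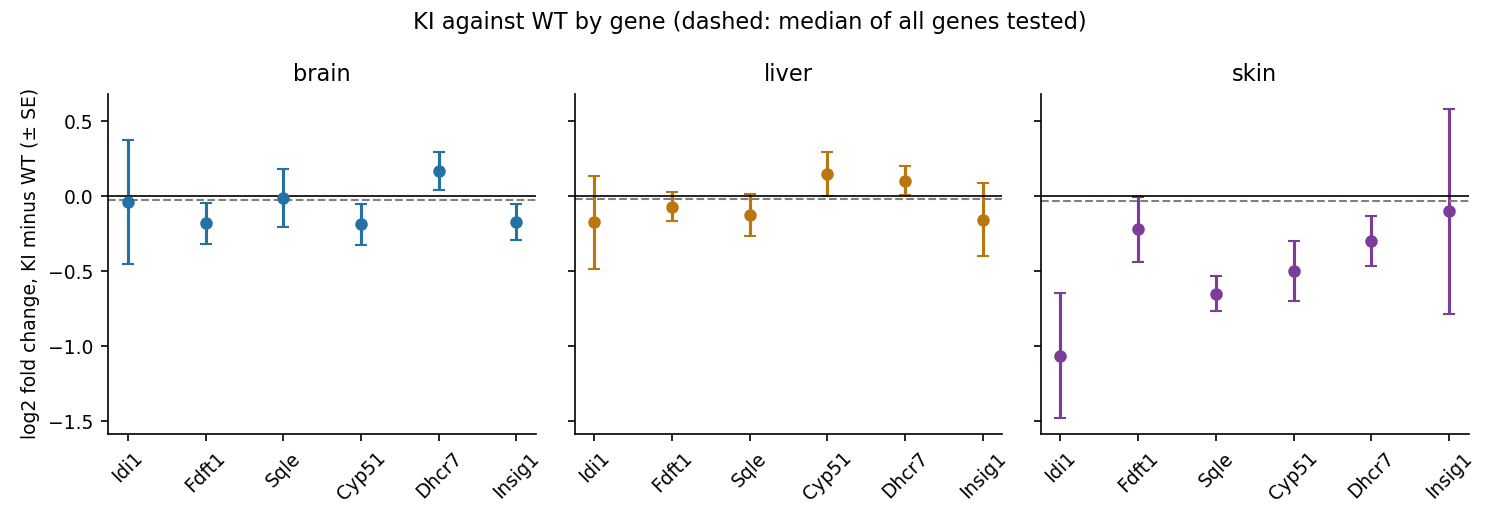
Log2 fold change of KI against WT (± SE) for the 6 genes in brain, liver and skin, with the median of all genes tested as a dashed line. All 6 points are below 0 in the skin, from -0.10 for Insig1 to -1.06 for Idi1, and none was called by edgeR in any tissue.

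The other genes of both arms of synthesis lay below 0 in the skin as well. The 8 measured genes of the mevalonate arm and the 14 of the sterol arm include 5 of the 6 genes above. The other 17 all had log2 fold changes below 0, as did 56.7% of all genes, and 7 of them had an unadjusted p under 0.05 (1.68% of all genes were lower at that p). Of the 33 pathway genes besides the 7, 9 were lower and 1 higher at that p, where 2.89% of all genes were higher. None was called by edgeR, and DESeq2 called Msmo1 and, as above, Sqle. Genes of one pathway vary together and are not independent. The medians of the whole arms were -0.39 and -0.41, against -0.03 for all genes. Without KI 1, 15 of the 17 were below 0 and 1 had an unadjusted p under 0.05, and without WT 2 these counts were 17 and 4. Below 0 were 11 of the 17 in the liver, where 53.2% of all genes were, and 13 of the 17 in the brain, where 52.8% were. Msmo1, the sterol-C4 methyl oxidase, was at 40.6 and 44.1 CPM against 53.8 to 81.5 CPM (-0.77 ± 0.169, edgeR unadjusted p = 0.00195, DESeq2 adjusted p = 0.0231). Fdps (-0.65 ± 0.197), whose transcript is partly repeated elsewhere in the genome, was also below all WT libraries in both KI libraries. Mylip, a ubiquitin ligase and target of the sterol-sensing factor LXR, was at 100.9 and 83.3 CPM in KI and 53.5 to 69.7 CPM in WT (0.54 ± 0.146, edgeR unadjusted p = 0.00592), and was not called. Srebf2 (-0.24) and Srebf1 (0.10) overlapped between groups.

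**Figure D4:**
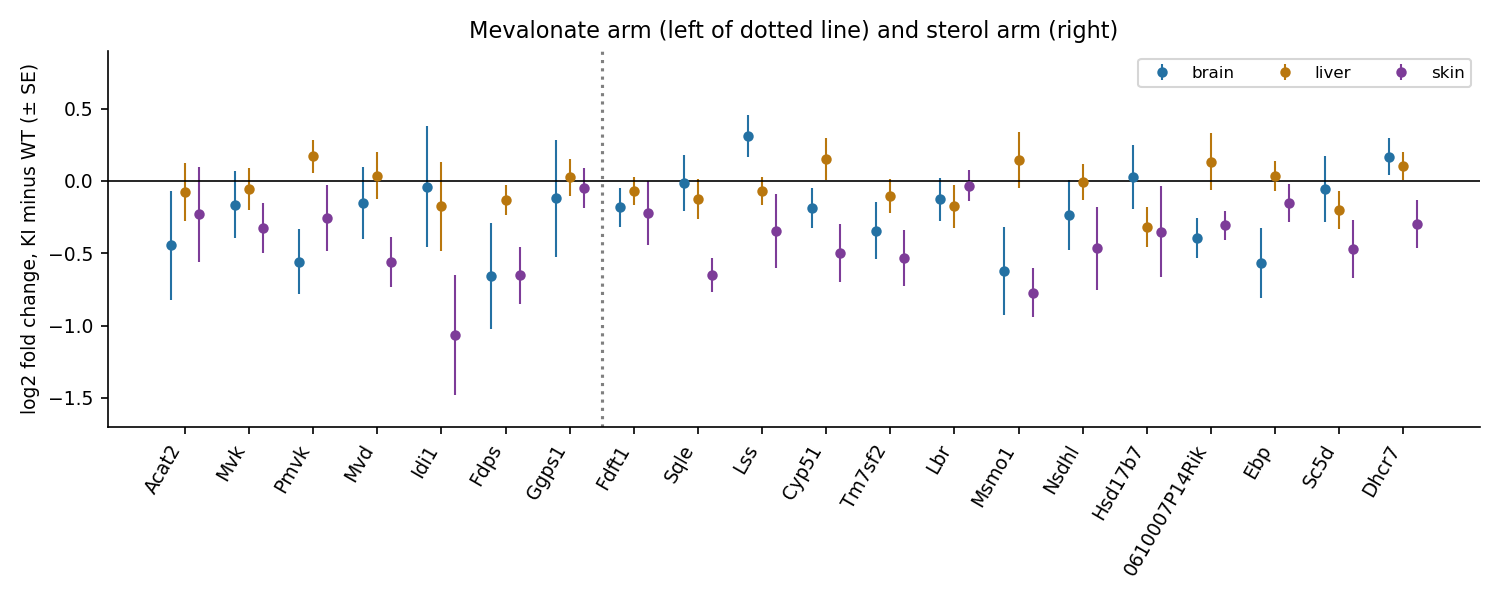
Log2 fold change of KI against WT (± SE) for 20 of the 22 genes of cholesterol synthesis, in pathway lists, with brain, liver and skin in separate colours. All 20 skin points are below 0, while 17 brain points and 12 liver points are; of all 22 genes, 17 are below 0 in the brain and 14 in the liver.

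The make-up of the skin libraries varied between mice. Adipocyte markers summed to 2894 and 7730 CPM in KI and 902.8 to 7048 CPM in WT, and keratinocyte markers to 13700 and 940.1 CPM in KI and 1512 to 16530 CPM in WT. None of either list was called. Macrophage markers summed to 570.7 and 801.7 CPM in KI and 390.2 to 516.0 CPM in WT, without overlap. Of the 8, 7 were higher at an unadjusted p under 0.05, where 2.89% of all genes were, and none was called by edgeR. Both KI values were above all WT values for 7 of 8, as for 5.5% of all genes. Over the 7 skin libraries, Insig1 and the adipocyte sum correlated on log2 values with Pearson's r = 0.837 (exact permutation p = 0.0105, 0.126 after adjustment over 12 relations) and Spearman's rho = 0.857 (exact permutation p = 0.0238, adjusted 0.286). Without the 2 libraries farthest from the median sum, r was 0.989. Sqle and the adipocyte sum had r = -0.150 (exact permutation p = 0.745, n = 7) and rho = -0.214 (p = 0.661), and 0.729 without the 2 farthest. None of the 12 relations of the 6 genes with the adipocyte and keratinocyte sums passed the adjustment. The part of these cells in the skin differences was not tested.

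**Figure D5:**
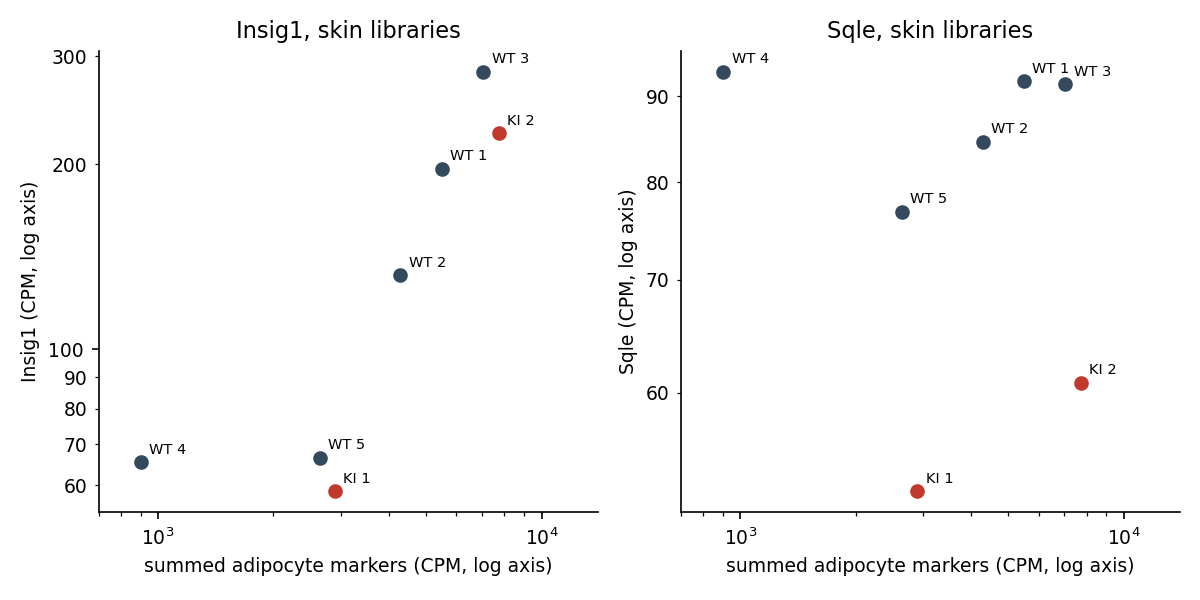
Insig1 and Sqle (CPM) against the summed adipocyte markers (CPM) in the 7 skin libraries, on log axes, with each mouse named. Insig1 is between 58.6 and 66.6 CPM in 3 libraries, WT 4, WT 5 and KI 1, and 225.0 CPM in KI 2, while both KI points of Sqle lie below all WT points.

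A difference of the KI effect between pairs of tissues was tested over all 21 libraries with the mouse as a block. No gene of the 6 was called in any pair of tissues by edgeR or DESeq2, where 2.6%, 0.0% and 0.0941% of 18062 genes were called by edgeR for brain against liver, brain against skin and liver against skin. At an unadjusted p under 0.05 there were 0, 2 and 2 of 6, against 15.8%, 7.56% and 5.41% of all genes. From brain to skin the log2 fold change of Sqle differed by 0.72 ± 0.226 and that of Dhcr7 by 0.53 ± 0.198 (brain minus skin, SE), with adjusted p of 0.553 and 0.568 by edgeR. For liver minus skin the difference was 0.64 ± 0.258 for Cyp51 and 0.51 ± 0.226 for Sqle, with adjusted p of 0.825 and 0.893 by edgeR. The skin difference of Sqle was therefore not shown to be particular to the skin.

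After the mean of each tissue and genotype was removed, the 6 genes moved together to an unequal degree. Over the 21 libraries, Fdft1 and Insig1 had the highest correlation of log2 CPM (r = 0.898), Sqle and Cyp51 followed (0.762), then Fdft1 and Cyp51 (0.736), and Sqle and Idi1 the lowest (-0.0592). The median of the 15 pairs was 0.142 for brain libraries, 0.377 for liver and 0.71 for skin, each over 7 libraries of a tissue that differ in make-up and depth. In the brain, Idi1 and Sqle had r = -0.825, where WT 5 held the highest Sqle and the lowest Idi1. The genes of the tables most like the mean of the 6, of 18106 ranked, were Cyb5b (r = 0.839), Crat (0.833), Ano10 (0.827), Pyurf (0.826), Hsd17b12 (0.826), Rtn4ip1 (0.821), Acat1 (0.817), Abhd5 (0.817), Cbr4 (0.816) and Tmem120b (0.813). None of them is in the pathway list. Nsdhl, the sterol dehydrogenase, ranked 66th at 0.751 and Lss 117th at 0.720, whereas Srebf2 had an r of -0.00072.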

How the data were processed

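Total RNA (RNeasy) was sequenced as TruSeq paired-end libraries, and the authors trimmed the reads and aligned them to mm9 with TopHat2. The submitters' notes also name HTSeq and DESeq. What the authors deposited for each library are unnormalized counts of reads, 1 value a gene symbol; whether strand was used is not given in the sources used here. Lines for unassigned reads (no gene in 10.3% to 18.3%) were left out.

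Counts were filtered by filterByExpr, scaled by TMM and tested with edgeR 4.0.16 in R 4.3.3 (Benjamini-Hochberg adjusted p under 0.1). KI and WT were compared with 7 libraries a tissue. DESeq2 1.42.0 was an alternative. Standard errors were derived from the F statistic. Lengths were those of the longest coding transcript, known for 83.61% of genes. Copies were sought with BLAST 2.17.0. Likeness used log2 CPM with a prior count of 2.

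The members and lists were chosen with earlier results of these data known. Genes named were the members, Srebf1 and Srebf2, up to 8 called list genes per tissue with the largest change (or the 5 with the smallest p where fewer than 3 were called), the most abundant gene per pathway list, and the 10 genes of highest likeness. Some genes outside this rule were named after their values were seen. These were Acat2, Mvk and Ggps1 between brain and liver, those called without WT 5, Nsdhl and Lss in the likeness, and Abca1. Some genes that the rule names are not reported here. The steps were tested on simulated data. Libraries of one genotype and number were taken as 1 mouse; sexes and litters are not given.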

Additional observations from a re-analysis of the deposited data

Results flagged for a closer look

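In each WT group of 5 mice, the lowest or highest value of each gene was compared with the other 4 by Dixon's gap test (critical value 0.71), which chance passes in about 1 of 20 groups. Of 18 groups of a gene and a tissue, 3 held a mouse far from the others. Sqle in the brain was at 367.1 CPM in WT 5, where the others were at 230.1 to 251.3 CPM. Insig1 in the liver was at 242.0 CPM in WT 4, where the others were at 447.3 to 487.8 CPM. Fdft1 in the liver was at 100.7 CPM in the same mouse, where the others were at 114.5 to 119.3 CPM. Without the mouse concerned, the log2 fold change of KI against WT was 0.15 for Sqle in the brain, -0.30 for Insig1 and -0.11 for Fdft1 in the liver, with edgeR adjusted p of 0.253, 0.168 and 0.479.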

How the results depend on the processing

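No alternative called any of the 6 genes in KI against WT but DESeq2 in the skin (1 gene, Sqle). The pathway count in the skin rose from 0 to 2 with DESeq2. In the brain it rose from 0 to 1 with DESeq2 and with the fit of all 21 libraries, to 12 with the replicate block (13.3% of all genes were called there), and to between 0 and 8 without single mice. In the liver it fell from 1 to 0 at an adjusted p of 0.05, with the replicate block, with the Y-linked covariate and with the fit of all 21 libraries, and was 0 to 1 without single mice. Same-numbered KI and WT libraries correlated with r from -0.0952 to 0.198, and the labels give no pairing, so the block was used nowhere else; it left the counts of the 6 called at 0. Between WT tissues, 2 to 3 of the 6 were called for brain against liver, 3 to 4 for brain against skin and 6 for liver against skin over 9 alternatives each, and the differences of KI effects stayed at 0 over 11 each.

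Signs changed in the values that follow. In the brain, Sqle was at 0.10 with the replicate block, 0.041 with the Y-linked covariate, 0.017 with a gene length offset and 0.072 with all 21 libraries (-0.054 to 0.15 without single mice), and Idi1 at 0.042 with all 21 libraries (-0.21 to 0.10). In the liver, the replicate block gave 0.022 for Sqle and 0.26 for Idi1 (-0.34 to 0.014 without single mice). In the skin, without single mice, Fdft1 ran from -0.48 to 0.037 and Insig1 from -1.34 to 0.60. Brain against liver, Sqle was at 0.0082 with DESeq2's size factors and with its test (-0.12 to 0.0093 without single mice), and Cyp51 ran from -0.060 to 0.039. Of the 10 genes most like the 6, 0 were among the 10 most alike in the 15 WT libraries and 1 by Spearman's rho. The values of Idi1 rest on 23 to 218 counts a library.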

Other observations

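Of the 6 genes of efflux and LXR signalling tested in the skin, 1 was below 0 in KI against WT, where 56.7% of all genes were, and the list median was 0.46. At an unadjusted p under 0.05, 2 were higher, against 2.89% of all genes, and none was called by edgeR. Macrophage markers summed in the same libraries to 570.7 and 801.7 CPM in KI against 390.2 to 516.0 CPM in WT, with 7 of 8 at an unadjusted p under 0.05 and none called. Their part in these values was not tested. Abca1, the transporter that loads cholesterol onto apolipoprotein A-I, was chosen after its values were seen. It was at 208.7 and 223.6 CPM in KI and at 155.5, 117.2, 189.0, 108.9 and 90.8 CPM in WT 1 to WT 5, so both KI values were above all WT values (log2 fold change 0.69 ± 0.259, edgeR unadjusted p = 0.0294, adjusted p = 0.999). Both KI libraries were above all WT libraries for 5.5% of all genes in the skin.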
